A study of Mus musculus with 12 samples.

Results

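Ionotropic and metabotropic glutamate receptors and the scaffold proteins that hold them at the postsynaptic membrane were examined in the mouse cerebellum. The set holds 40 named genes, and a gene entered when a row of the deposited tables carried its symbol and no other. At the level of whole genes 32 of the 40 had such a row, among 14848 genes with a row of their own. At the level of single exons 33 had probe sets, 653 of 229581 in the table, the added gene being Grin1. The other 7 genes (Grik3, Grin3a, Grm2, Grm5, Shank1, Shank2 and Grip2) were not analysed here, and Grin3a appears at gene level in a row that it shares with Ppp3r2.

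Cerebellar total RNA came from 3 wild-type and 3 NMF291–/– female mice at postnatal day 30, each on its own Affymetrix Mouse Exon 1.0 ST array. The mutants carry a 5-nucleotide deletion in Rnu2-8, a gene for U2 snRNA, the spliceosomal RNA that pairs with the branch site of introns. The series set out to find transcripts that differ in the mutant cerebellum. The labels name no strain or genetic background, and the deletion is not restricted to a cell type. Each array was summarised at both levels, so the tables are 2 readings of the same 6 arrays and each genotype has n = 3 in both. Markers of cerebellar granule and Purkinje neurons gave high signal in wild type, with Gabra6 at 12.62, Neurod1 at 12.73 and Calb1 at 12.58 (mean log2 signal). All values are log2 signal, and differences are mutant minus wild type, tested with limma over every row of a table with a Benjamini-Hochberg adjusted p under 0.05 as the threshold. Signals of different genes come from different probes and are not set against each other as abundances.

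Glutamate opens AMPA, kainate and NMDA receptor channels, which are tetramers of Gria, Grik and Grin subunits, and acts on the G protein-coupled Grm receptors. In the cerebellum mossy fibres release it onto granule neurons, and the parallel fibres of granule neurons release it onto Purkinje cells and interneurons. Scaffolds of the Dlg family bind receptor tails, Dlgap proteins link them to Shank, and Shank is tied through Homer to metabotropic receptors and intracellular calcium channels. As granule neurons mature, NMDA receptors that contain Grin2b give way to ones that contain Grin2a and Grin2c.

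The 250 bases upstream of the annotated transcription start are shown for the 4 genes called at gene level, because 3 of them moved one way and 1 the other. They are from RefSeq on GRCm38.p6, written 5′ to 3′ in the direction of transcription, and 28 of the 40 genes matched this promoter collection, in 44 windows. Capitals mark a match on either strand to the GC box GGGCGG, the cAMP response element half-site TGACG, the E-box forms CAGCTG and then CACGTG, or the CCAAT box, and no match overlaps one of another kind in the windows printed. Where a gene has several start sites, the window that holds a match is printed.
Grin2c (chr11:115267244-115267493, minus strand): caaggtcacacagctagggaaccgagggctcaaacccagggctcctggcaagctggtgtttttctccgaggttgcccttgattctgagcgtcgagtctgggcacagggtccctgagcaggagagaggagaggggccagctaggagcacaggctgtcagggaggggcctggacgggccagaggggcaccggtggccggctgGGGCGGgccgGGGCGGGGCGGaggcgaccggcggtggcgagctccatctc
Grik2 (chr10:49788755-49789004, minus strand): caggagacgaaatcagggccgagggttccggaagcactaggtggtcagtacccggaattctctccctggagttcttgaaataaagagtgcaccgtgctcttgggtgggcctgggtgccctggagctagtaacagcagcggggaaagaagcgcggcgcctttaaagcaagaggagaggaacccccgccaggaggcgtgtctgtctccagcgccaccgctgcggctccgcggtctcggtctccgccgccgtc
Dlg4 (chr11:70023732-70023981, plus strand): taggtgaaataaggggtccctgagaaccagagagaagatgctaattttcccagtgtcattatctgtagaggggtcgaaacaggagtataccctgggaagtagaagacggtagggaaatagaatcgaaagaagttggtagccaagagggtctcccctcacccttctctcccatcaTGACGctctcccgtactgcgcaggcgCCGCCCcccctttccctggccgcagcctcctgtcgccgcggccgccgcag
Dlgap1 (chr17:70561497-70561746, plus strand): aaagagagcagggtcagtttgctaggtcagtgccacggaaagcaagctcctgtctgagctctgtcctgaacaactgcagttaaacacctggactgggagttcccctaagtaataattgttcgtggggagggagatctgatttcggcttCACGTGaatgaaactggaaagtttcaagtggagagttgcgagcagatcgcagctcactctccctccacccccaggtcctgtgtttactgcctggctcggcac
Grin2c, the gene that rose, has 3 GC boxes in this window, and 2 of them share a base. Of all 32851 RefSeq promoter windows of this length 32.7% hold a GC box, as do 18 of the 44 windows of the set. The Grik2 window holds none of the 5 motifs, which says only that these letters are not in it. The third Dlg4 window holds 1 GC box and 1 TGACG, and the second Dlgap1 window holds 1 CACGTG. Both were printed because they hold a match, and the other windows of these genes hold none of the motifs. Of all windows 17.8% hold TGACG and 6.02% hold CACGTG, as do 6 and 4 of the 44 windows of the set. Those shares are of windows not chosen for a match. A match describes the letters and does not show a bound factor.

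At gene level 3 of the 32 genes fell in the mutant, Grik2, Dlg4 and Dlgap1, and 1 rose, Grin2c; 28 did not pass. Over all genes with a row of their own 6.5% were called, 2.29% lower and 4.21% higher, against 9.38% and 3.12% of the set. The median difference was -0.06 in the set and 0.00490 over all genes, and 22 of the 32 differences were negative (68.8%, against 48.2% over all genes). An unadjusted p under 0.05 (limma) was reached by 12 of the 32 genes and by 3537 of all 14848. Values of the 2 genotypes did not overlap in 17 of the 32 genes, 14 of them lower in the mutant. Non-overlap was also common elsewhere, at 33.2% of all genes in either direction and 13.3% downwards. In a tissue extract, fewer cells of a type and less RNA per cell cannot be told apart.

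**Figure D1:**
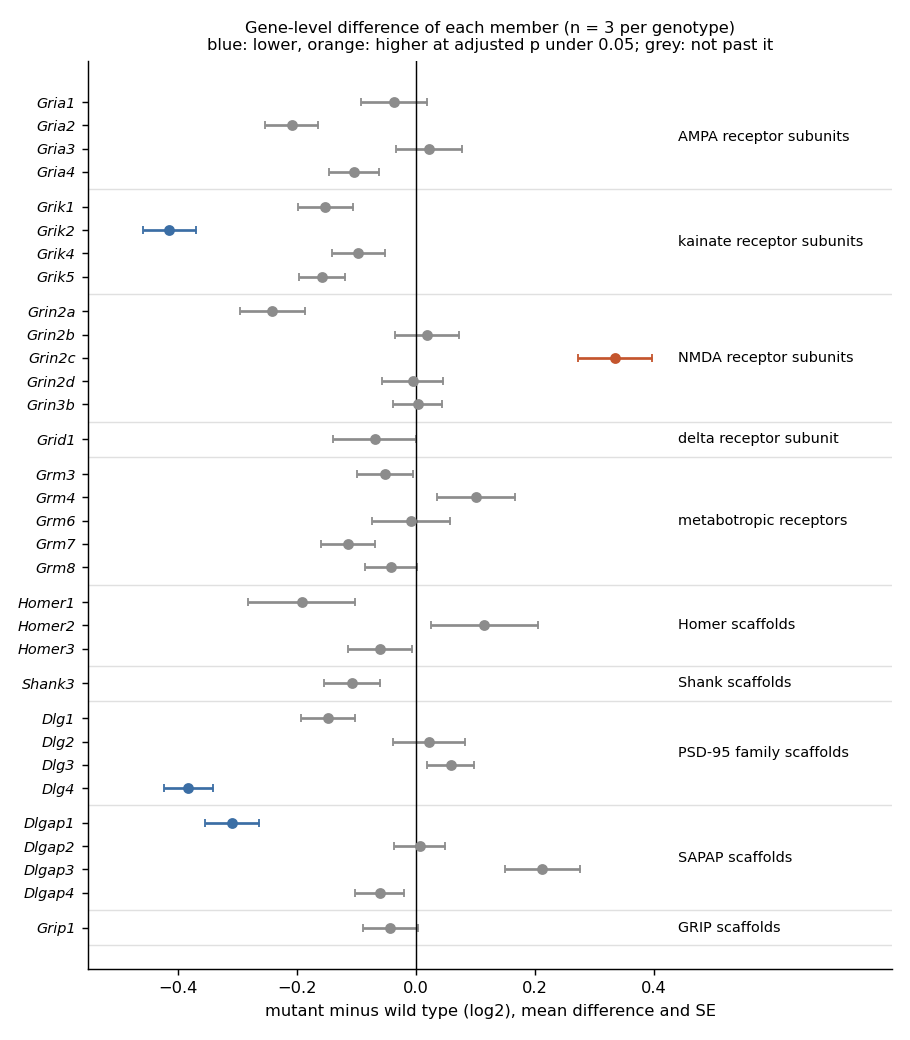
Difference of each gene with a gene-level row (x axis, log2, mutant minus wild type; points are mean differences and bars their SE, n = 3 per genotype), grouped by role on the y axis. Blue marks the 3 genes past the threshold downwards, orange the 1 upwards, and grey the 28 that did not pass.

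The calls depended on the array scaling. After median centring of the arrays 6 genes of the set fell and 0 rose, and after quantile normalization 7 fell and 0 rose. Over all gene-level rows, unnamed ones included, 2.57% were lower and 2.27% higher after centring, and 2.55% lower and 2.91% higher after quantile normalization. Of the 14848 genes with a row 483 were lower and 337 higher after centring, and 479 lower and 461 higher after quantile normalization. Grik2, Dlg4 and Dlgap1 passed under both, joined by Gria2, Grik5 and Grin2a, and under quantile normalization also by Grik1. The median difference of the set was -0.11 and -0.09 under these scalings, while that of all genes went from 0.00490 to -0.04 and -0.03. The rise of Grin2c had adjusted p-values of 0.0801 and 0.0525 there.

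Of 4 measured kainate receptor subunits 1 fell, and the other three had negative differences that did not pass. Grik2 encodes a subunit that forms functional channels and is strongly expressed in granule neurons. Its signal was 11.58, 11.57 and 11.49 in wild type and 11.16, 11.12 and 11.13 in the mutants. All mutants lay below all wild types, by a mean of 0.41 ± 0.04 (log2, SE), 0.751 of the wild-type level (adjusted p = 0.0127, limma). Grik5, an auxiliary subunit that needs a partner such as Grik2 to form a channel, was at 9.27, 9.26 and 9.28 in wild type and 9.10, 9.12 and 9.12 in the mutants. These groups did not overlap either, and the difference of -0.16 ± 0.04 missed the threshold (adjusted p = 0.0739). Grik1, a subunit with edited and unedited channel forms, was at 8.59, 8.53 and 8.49 in wild type and 8.35, 8.41 and 8.39 in the mutants. It too was without overlap and did not pass (-0.15, adjusted p = 0.122), as was Grik4 at -0.10, another auxiliary subunit (adjusted p = 0.266). On each array the signal of Grik2 minus that of Grik5 was 2.21 to 2.31 in wild type and 1.99 to 2.06 in the mutants, so Grik2 differed more between genotypes than Grik5 did.

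The 25 probe sets of Grik2 all had a negative difference, from -1.12 to -0.18 with a median of -0.44. In 23 of them the genotypes did not overlap, and 5 passed on their own (-0.68 to -0.59). The lowest value belonged to probe set 4815974, at 8.62, 8.10 and 7.29 in wild type and 6.86, 7.48 and 6.32 in the mutants. Its groups overlap and it did not pass (adjusted p = 0.231).

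Among 4 AMPA receptor subunits 0 passed by limma, 2 of them at an unadjusted p under 0.05. Gria2, which makes the channel impermeable to calcium, was at 11.53, 11.46 and 11.44 in wild type and 11.28, 11.28 and 11.25 in the mutants. The groups were apart, by -0.21 ± 0.04 (adjusted p = 0.0550, limma), and the call was reached under both other scalings (adjusted p = 0.0332 and 0.0412). Gria4, abundant in Bergmann glia and granule neurons, was at 11.99, 11.94 and 11.91 in wild type and 11.86, 11.82 and 11.84 in the mutants. It was without overlap, at -0.10 ± 0.04 (adjusted p = 0.216). Gria3, another pore-forming subunit, was at 10.47, 10.36 and 10.33 in wild type and 10.37, 10.46 and 10.40 in the mutants. It overlapped between genotypes (0.02), as did Gria1 (-0.04). Within arrays, Gria2 minus Gria1 was 0.10 to 0.14 in wild type and -0.12 to -0.00193 in the mutants, while Gria4 minus Gria1 overlapped.

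The probe sets of Gria2 did not all move alike. In 4 of the 25 (4565518, 4712583, 5535923 and 5606238) the difference was -0.57 to -0.48, and the other 21 ran from -0.34 to 0.00023. Probe set 4712583 passed on its own (adjusted p = 0.0451). The bound that separates these groups of probe sets was chosen after their values were seen.

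Of 5 NMDA receptor subunits measured at gene level 1 rose, Grin2c, and 0 fell. Grin2c, the subunit typical of mature granule neurons, was at 10.46, 10.55 and 10.54 in wild type and 10.89, 10.74 and 10.91 in the mutants. Every mutant was above every wild type, by 0.33 ± 0.06 (SE), 1.26-fold (adjusted p = 0.0398, limma, and lost under both other scalings as given above). With the median of its probe sets as the gene value, the Grin2c difference was 0.52 ± 0.07 (adjusted p = 0.0133, limma). Grin2a, the other subunit of mature receptors, was at 10.24, 10.28 and 10.16 in wild type and 10.02, 9.92 and 10.02 in the mutants. The groups did not overlap, and the difference of -0.24 ± 0.05 did not pass (adjusted p = 0.0611) but did under both other scalings (adjusted p = 0.0490 and 0.0434). Grin2a did not pass with the median of its probe sets as the gene value (adjusted p = 0.168, limma) or with the replicate number as a block (0.169). Leaving out any 1 array gave 0.1005 to 0.166. Of 15 alternative settings it passed in 6, the wider threshold of 0.1 among them. Grin2b, the subunit of immature receptors, was at 8.09, 8.11 and 8.03 in wild type and 8.09, 8.03 and 8.17 in the mutants, with overlap and a difference of 0.02 ± 0.05. Grin3b, a subunit that lowers calcium permeability, was at 7.48, 7.47 and 7.49 in wild type and 7.52, 7.49 and 7.45 in the mutants. It overlapped (0.00334), and so did Grin2d (-0.00562).

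A difference between 2 genes on 1 array is free of any shift common to the array. Grin2c minus Grin2a was 0.22, 0.27 and 0.38 in wild type and 0.87, 0.82 and 0.90 in the mutants, a shift of 0.58 with no overlap. Grin2c minus Grin2b rose from 2.44 ± 0.07 to 2.75 ± 0.04 (SD, n = 3), also with no overlap, and Grin2a minus Grin2b went from 2.15 ± 0.02 to 1.89 ± 0.04. These pairs show unequal differences of the genes and do not show which of them changed. All pairs compared were chosen with earlier results of these data known, and they restate the gene-level values.

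**Figure D2:**
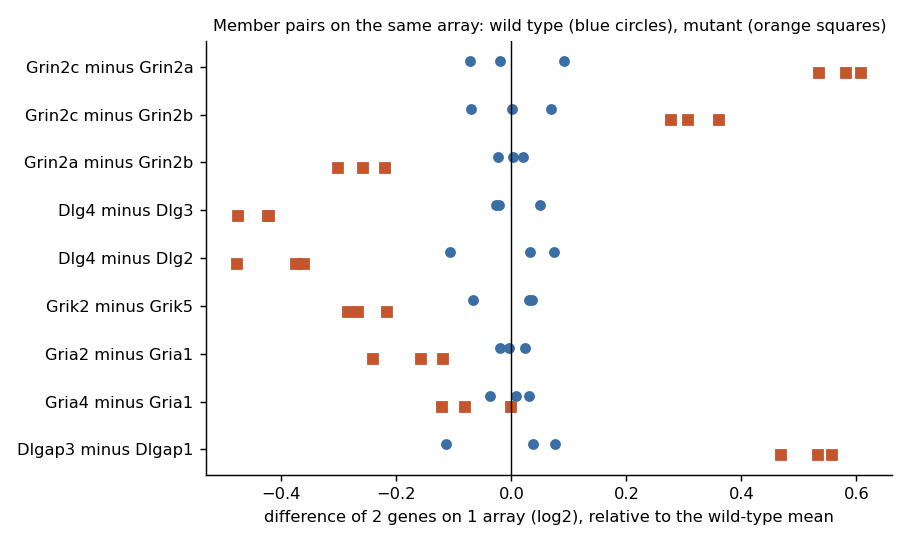
Difference between 2 genes of the set on the same array (x axis, log2, relative to the wild-type mean of that pair), 1 point per array, wild type in blue circles and mutant in orange squares. The genotypes are apart in all pairs shown but Gria4 minus Gria1, with the widest shift, 0.58, for Grin2c minus Grin2a. The pairs were chosen with earlier results of these data known, and their separation follows from the gene-level differences.

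At exon level 22 of the 23 Grin2c probe sets had a positive difference, with a median of 0.37, and 20 were without overlap. Probe set 4743575 passed on its own, from 10.37 to 11.03 (adjusted p = 0.0380). All 16 Grin2a probe sets were negative, from -0.41 to -0.01. Grin1, the subunit every NMDA receptor contains, was measured at this level only: 21 of its 23 probe sets were negative, none passed, and the median of its probe sets was 10.85, 10.87 and 10.94 in wild type and 10.87, 10.78 and 10.75 in the mutants, which overlap.

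Of 5 metabotropic receptors 0 passed by limma, 1 at an unadjusted p under 0.05, nor did the delta receptor subunit Grid1 (-0.07 ± 0.07, with overlap), a postsynaptic organiser that binds cerebellins. Grm4, the presynaptic receptor of parallel fibres, was at 11.69, 11.74 and 11.71 in wild type and 11.84, 11.69 and 11.91 in the mutants. Its groups overlap, and the difference of 0.10 ± 0.07 did not pass. Grm7 at -0.11 ± 0.04 was without overlap (adjusted p = 0.205). Grm6, known from retinal bipolar cells, was at 7.48, 7.36 and 7.31 in wild type and 7.39, 7.43 and 7.30 in the mutants. It overlapped (-0.00828), as did Grm3, present in glia and Golgi cells (-0.05), and Grm8 (-0.04). Within Grm4, probe set 4732931 rose from 8.50 to 9.14 (adjusted p = 0.0337), and 4707867 was at 0.72 without passing (adjusted p = 0.124). The rest of the 11 lay between -0.13 and 0.13.

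Of the PSD-95 family, Dlg4 fell. It encodes PSD-95 itself, the most abundant scaffold of excitatory synapses. Its signal was 11.54, 11.52 and 11.58 in wild type and 11.17, 11.19 and 11.15 in the mutants. The groups were 0.38 ± 0.04 apart, 0.767 of the wild-type level (adjusted p = 0.0127, limma). Dlg1, which carries AMPA receptors to the membrane, was at 10.76, 10.70 and 10.70 in wild type and 10.62, 10.57 and 10.54 in the mutants, without overlap, but -0.15 ± 0.05 did not pass (adjusted p = 0.124). Dlg3, a further synaptic member of the family, was at 9.07, 9.04 and 9.04 in wild type and 9.09, 9.11 and 9.13 in the mutants. It lay slightly higher in every mutant (0.06, adjusted p = 0.451), while Dlg2 overlapped (0.02, adjusted p = 0.873). Dlg4 minus Dlg3 on the same array was 2.50 ± 0.04 in wild type and 2.06 ± 0.03 in the mutants (SD, n = 3), and Dlg4 minus Dlg2 was 0.73 ± 0.09 and 0.33 ± 0.06. Neither pair overlapped, so the family did not shift by a common amount.

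All 20 Dlg4 probe sets were lower in the mutants, from -0.54 to -0.24, each without overlap, and 2 passed on their own. All 31 Dlg1 probe sets were negative as well, from -0.46 to -0.03, and 15 were without overlap. None of these 31 passed.

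**Figure D3:**
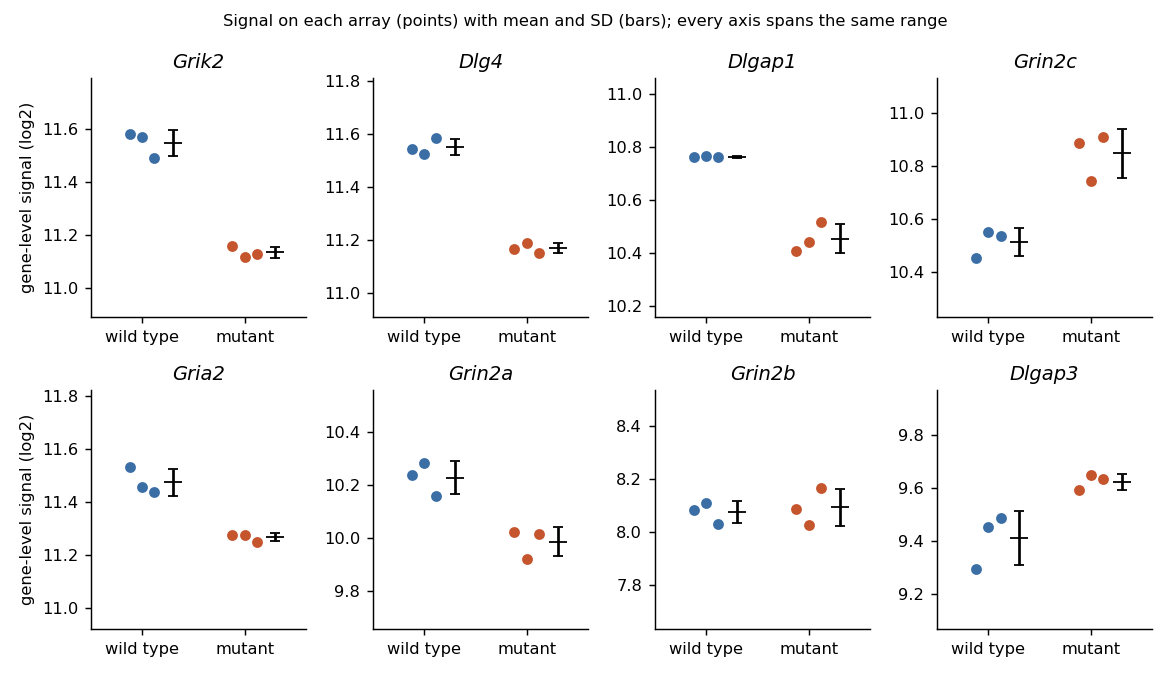
Gene-level signal (y axis, log2) on each array for 8 genes, wild type in blue and mutant in orange, with the mean and SD beside the points; every panel spans the same range. Grik2, Dlg4 and Dlgap1 are lower and Grin2c higher in the mutants past the threshold, and Grin2b overlaps between genotypes.

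Dlgap genes encode SAPAP proteins, which join the PSD-95 family to Shank. Dlgap1 was at 10.76, 10.77 and 10.76 in wild type and 10.41, 10.44 and 10.52 in the mutants. It fell by 0.31 ± 0.05 (SE), 0.808 of the wild-type level (adjusted p = 0.0256, limma), and its 15 probe sets were all lower, each without overlap. Dlgap3, the family member best known from the striatum, was at 9.30, 9.45 and 9.49 in wild type and 9.59, 9.65 and 9.63 in the mutants. It lay higher in every mutant, by 0.21 ± 0.06, but did not pass (adjusted p = 0.112), and 16 of its 17 probe sets were positive. Dlgap3 minus Dlgap1 went from -1.35 ± 0.10 to -0.83 ± 0.05 (SD, n = 3) without overlap. Dlgap2 was at 7.005, 7.04 and 6.98 in wild type and 6.98, 7.05 and 7.01 in the mutants. It overlapped (0.00667), and Dlgap4 at -0.06 was without overlap and did not pass.

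Of 1 Shank, 3 Homer and 1 GRIP scaffold 0 passed at gene level by limma, and of the Homer genes 0 were at an unadjusted p under 0.05. Shank3, the master scaffold that links Dlgap and Homer proteins, was at -0.11 ± 0.05 without overlap and did not pass. Homer1 was at 8.69, 8.40 and 8.41 in wild type and 8.33, 8.24 and 8.35 in the mutants, without overlap, with wild-type replicate 1 above the other arrays (-0.19 ± 0.09, adjusted p = 0.272). Homer3, the form enriched in Purkinje cells, was at 11.001, 11.07 and 11.11 in wild type and 10.94, 11.01 and 11.06 in the mutants. Homer2, another long scaffold form, was at 7.999, 7.95 and 7.96 in wild type and 7.93, 8.06 and 8.27 in the mutants. Both overlapped between genotypes (-0.06 and 0.11), as did Grip1, which binds AMPA receptor tails (-0.04). A transcript cluster that the platform lists under a former name of Homer2 was left out of the set and was at 0.25 ± 0.20 (adjusted p = 0.520).

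Over both levels, the sign of a gene's difference matched that of the median of its probe sets in 28 of 32 genes; these are summaries of the same arrays. Over the exon level 1% of all probe sets passed. Of the 653 probe sets of the set 457 (70%) had a negative difference, against 46.7% of all probe sets, and the medians were -0.07 and 0.02. In 9 the signal fell and in 3 it rose, 1.38% and 0.459%, against 0.402% and 0.603% of all probe sets. Those that fell were 5 of Grik2, 2 of Dlg4 and 1 each of Gria2 and Shank3, and those that rose were 1 each of Grin2c, Grm4 and Dlgap3. Without overlap were 34.2% of the probe sets of the set and 24.1% of all. In 6 genes (Gria4, Grik2, Grin2a, Dlg1, Dlg4 and Dlgap1) every probe set was negative.

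**Figure D4:**
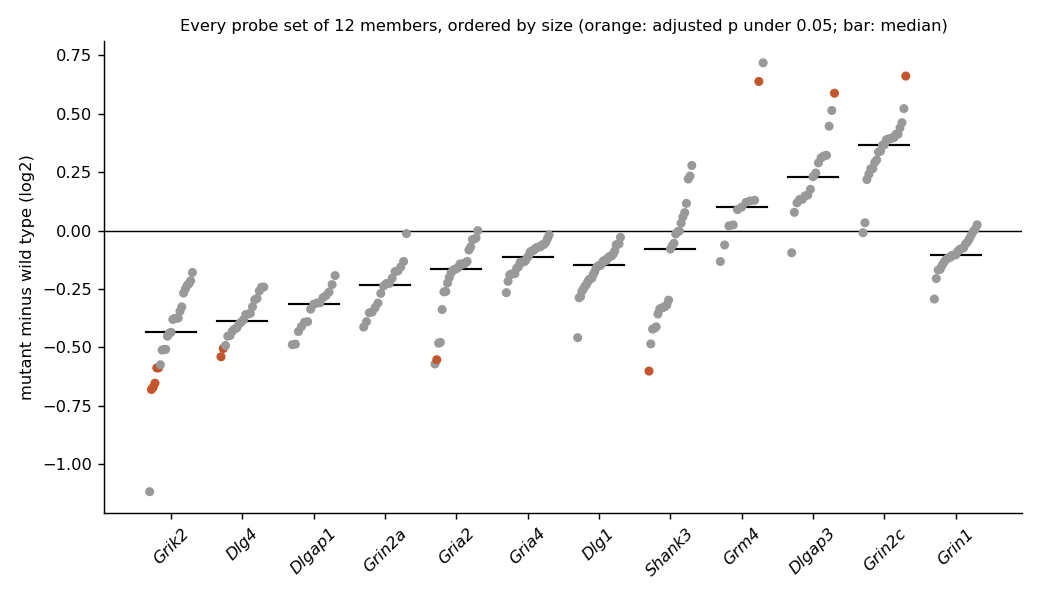
Difference of every probe set (y axis, log2, mutant minus wild type) for 12 genes on the x axis, ordered by size within each gene, with the gene's median as a bar; orange points passed the threshold. All probe sets of Grik2, Dlg4, Dlgap1, Grin2a, Gria4 and Dlg1 lie below 0, and those of Shank3 run from -0.60 to 0.28.

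Exon usage was read from the splicing index, the signal of a probe set minus the median of the gene's other probe sets on the same array. It could be tested for 471 probe sets in 24 genes of the set. The index of 1 of the 471 passed, against 161 of 107238 probe sets tested in all (0.15%). A count of 1 does not set these genes apart from the rest. The call was that of Shank3 4837747. Its index was 0.60, 0.81 and 0.62 in wild type and 0.10, 0.07 and 0.11 in the mutants, a difference of -0.58 ± 0.09 (SE; adjusted p = 0.0440, limma). The call was lost without wild-type replicate 2 or 3 or any mutant replicate, with the replicate number as a block, with the median of all probe sets as the gene level and with no filter on level, as 0 index values of the set passed in each of these fits. The signal itself fell from 9.96 to 9.35 (adjusted p = 0.0385). At an unadjusted p under 0.05 were 49 of the 471 (10.4%), about the share among all probe sets tested (10.8%).

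The probe sets of Shank3 did not all move alike. Of the 25 probe sets 12 had differences of -0.60 to -0.30 and 13 of -0.08 to 0.28, a division made after the values were seen. Shank3 probe set 4987548, with an index difference of -0.46 (adjusted p = 0.127), and 4375493, at 0.31 (adjusted p = 0.245), did not pass. Where in the gene each probe set lies was not analysed here.

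The other probe sets with the smallest p did not pass. Downwards these were Grin2c 5412689 (index difference -0.48, adjusted p = 0.0765), Dlgap3 4344740 (-0.41, adjusted p = 0.0992) and Gria2 5606238 (-0.40, adjusted p = 0.128). The Grin2c probe set was level between genotypes in signal, at 9.73 and 9.73, while most of its gene was higher. Upwards they were Grm4 4732931 (0.51, adjusted p = 0.0555), Dlgap3 5028268 (0.37, adjusted p = 0.210), Dlg3 4830041 (0.47, adjusted p = 0.253) and Homer1 4725497 (0.32, adjusted p = 0.270). In all of them the index did not overlap between genotypes, which their selection by the smallest p makes likely. With diffSplice in place of the index test 9 of the 471 probe sets of the set passed, against 1346 of all 107238 tested (1.26%). The 9 were 4 of Gria2 and 1 each of Shank3, Grin2c, Grm4, Dlg3 and Grik2. On simulated arrays that test made 204 false calls among 356. The simulation changed single probe sets and drew independent noise, and it gave fewer calls than the 1346 of the data. It thus does not give the share of false calls among the 9.

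**Figure D5:**
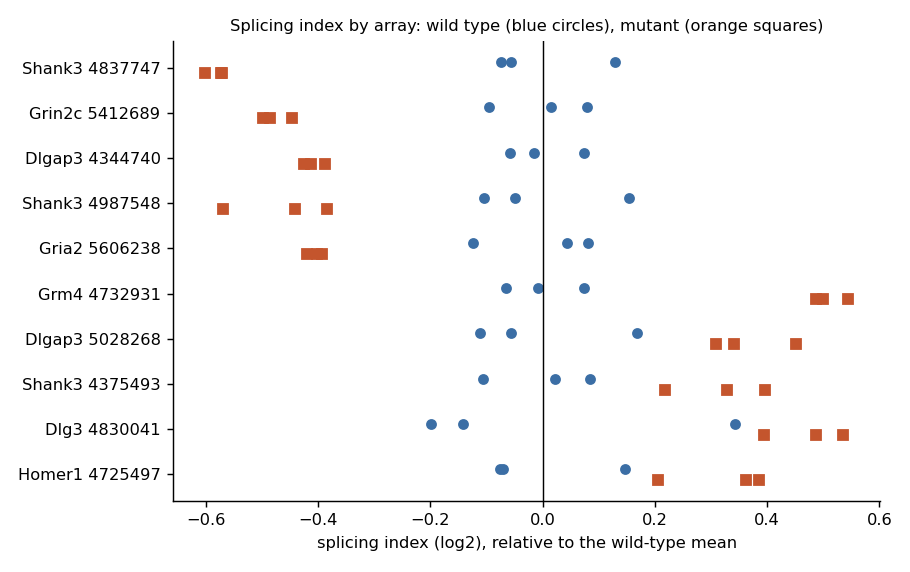
Splicing index (x axis, log2, relative to the wild-type mean) on each array for the 10 probe sets with the smallest p, 5 in each direction, wild type in blue circles and mutant in orange squares. Shank3 4837747 passed the threshold, and the other 9 did not. None of the 10 overlaps between genotypes, which selection by the smallest p makes likely.

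Genes that act with these receptors were examined beside them. Of 16 measured AMPA and kainate receptor auxiliary and trafficking genes 2 fell and 1 rose, with a median of -0.06. Nsf, an ATPase that also binds the Gria2 tail, fell by 0.26, and Nptx1, a pentraxin that clusters AMPA receptors, fell by 0.28, although not under quantile normalization (adjusted p = 0.0621). Gripap1, a partner of GRIP in endosomes, rose by 0.33. Of 24 measured postsynaptic signalling and density genes 5 fell and 1 rose, with a median of -0.14 and 22 negative differences. Sipa1l1, a Rap GTPase-activating protein bound to PSD-95, fell by 0.51 ± 0.05 (adjusted p = 0.00986, limma). The adhesion molecule Lrrtm2 fell by 0.45, Mpp2 by 0.34 and Arc, an activity-regulated endocytic adaptor, by 0.32. The rise was that of Mpp3 (0.26), named here after its values were seen, and it was lost after median centring and quantile normalization. None of 14 glutamate transport and metabolism genes passed, with Slc38a2 at -0.15 and Slc38a3 at 0.13, at an unadjusted p under 0.05 for 2 of them. None of 9 genes of NMDA co-agonist supply passed, 0 of them at an unadjusted p under 0.05, with Shmt2 at 0.13 and Psph at 0.19.

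Markers of cell types that express or lack these receptors were measured beside them. Of 12 granule neuron markers 3 fell (Gabra6 by 0.46, Kcnd2 by 0.46 and Tiam1 by 0.36) and none rose. The list median was -0.05, and 9 of the 12 differences were negative. Zic2, named here after its values were seen, was higher without overlap and did not pass (0.22, adjusted p = 0.0581), and Cbln3, Rbfox3 and Pax6 were at -0.000367, 0.02 and 0.04 with overlap. The mean of the granule neuron list on the mutant arrays was -0.17 to -0.08 relative to the wild-type mean, against -0.01 to 0.01 on the wild-type arrays. Of 11 Purkinje cell markers 0 passed by limma, 3 at an unadjusted p under 0.05, and all were negative, with a median of -0.08, Plcb4 at -0.17 and Gng13 at -0.27. Of 10 markers of unipolar brush, Golgi and molecular layer cells 0 passed, 0 at an unadjusted p under 0.05 (Eomes at 0.28, Slc6a5 at -0.10). Of 11 Bergmann glia and astrocyte markers Gfap rose, by 1.48, and 0 of 11 oligodendrocyte markers passed, 0 at an unadjusted p under 0.05 (Mog at 0.11, Mal at 0.11). Of 15 microglia and macrophage markers 11 rose and none fell (Ly86 by 1.66, Cd53 by 0.92, C1qb by 1.55 and Tyrobp by 1.48), with list means of 0.69 to 1.26 on the mutant arrays and -0.05 to 0.03 on the wild-type arrays. Their part in the differences of receptor and scaffold genes was not tested. None of 10 endothelial (Slco1c1 at -0.16, Flt1 at -0.06), 10 choroid plexus (Otx2 at -0.38, Calml4 at -0.62), 11 brainstem (Hoxa5 at -0.19, Hoxc4 at -0.16) or 5 forebrain markers (Tbr1 at 0.20, Neurod6 at 0.14) passed by limma, with 0, 0, 2 and 1 at an unadjusted p under 0.05. The choroid plexus list was at -0.99 on mutant replicate 3 and at -0.07 and -0.01 on the other mutants. Without that replicate Grik2, Dlg4, Dlgap1 and Grin2c were at -0.41, -0.37, -0.34 and 0.30. Each then missed the threshold (adjusted p = 0.0625, 0.0625, 0.0638 and 0.116, limma). The part of choroid plexus signal in the differences of these genes was not tested.

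Leaving out 1 array lowered the number of calls in the set and in the whole gene-level table, where 50 to 356 rows were then called higher and 26 to 140 lower, against 920 and 422 with all 6 arrays. Grik2 passed without wild-type replicate 1 or 3 and Dlg4 without wild-type replicate 1; Grik2 was lost without wild-type replicate 2 or any mutant replicate and Dlg4 without wild-type replicate 2 or 3 or any mutant replicate. Dlgap1 and Grin2c were lost without any 1 of the 6 arrays. Adjusted p-values over these fits were 0.0429 to 0.0625 for Grik2, 0.0413 to 0.0636 for Dlg4, 0.0620 to 0.0917 for Dlgap1 and 0.0654 to 0.127 for Grin2c. The differences themselves stayed between -0.44 and -0.40, -0.40 and -0.36, -0.34 and -0.28, and 0.30 and 0.39. At exon level no probe set of the whole table passed by limma without any 1 array, with 116 to 137 of the 653 at an unadjusted p under 0.05. How many of all probe sets reached that p in these fits was not counted. The splicing index of 1 probe set of the set passed without wild-type replicate 1 and of 0 without any other array.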

How the data were processed

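The deposited values, made by the authors, run from 2.32 to 14.5 and were read as log2 for that reason. Neither the labels nor the headers state a background correction, normalization or summary method, and the submitters' processing notes name mm8 as the build. The gene level has 23332 rows and the exon level 229581. Genes were named from the platform annotation, and names other than those of the set were updated through RefSeq (GRCm38.p6).

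Differences were tested with limma 3.58.1 in R 4.3.3 (lmFit and eBayes, two-sided, no covariate, no filter on low values), and adjusted by Benjamini-Hochberg across the whole table. The series text calls the mice biological replicates. Arrays give no counts, so 3 arrays per genotype set the precision. The splicing index was tested in genes with at least 3 probe sets and a median at or above the 50th percentile (8.55), and probe sets no lower than the 25th (7.06). Leaving the probe set out of its gene's median keeps the index from being 0 by construction. The members, gene lists and tests were chosen with earlier results of these data known.

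Named were all called genes, genes without overlap that differed by 0.3 or more, and Grin2a, Grin2b, Grin2c, Gria2 and Grin1; the highest and lowest of each role are among the genes whose values are given. For the index, called probe sets were named, filled to 5 in each direction; for other lists, up to 4 called genes or the 2 with the smallest p.

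On simulated arrays with 100 changes of 0.5 and 100 of 1 (log2), the gene-level test over 23332 rows recovered 58 and 95, with 4 false calls, and the exon-level test over 229581 rows recovered 0 and 53, with 4. The index test over 107062 probe sets recovered 7 of 99 and 91 of 91, with 18 false calls among 116.

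Deviations of same-numbered arrays of the 2 genotypes from their group means correlated at -0.01, -0.04 and 0.03 at gene level. These values show no deviation shared by same-numbered arrays and cannot exclude a small one. Plots used matplotlib 3.10.9 (Python 3.11.15).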

Additional observations from a re-analysis of the deposited data

How the results depend on the processing

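With the main settings 1 gene of the set rose and 3 fell at gene level, 3 probe sets rose and 9 fell, and 1 splicing index passed. Same-numbered arrays showed no shared deviation, though a small one could be missed. With the numbers as a replicate block no row of either table passed by limma (0 genes and 0 probe sets of the set, in each direction). At an unadjusted p under 0.05 were 9 genes and 129 probe sets of the set. In this fit 0 index values passed, with 48 of 471 at an unadjusted p under 0.05. For the alternative fits, how many of all rows reached that p was not counted. With trend and robust eBayes 1 gene rose and 6 fell, and 21 probe sets rose and 78 fell (3.22% and 11.9%). Of all gene-level rows 2.92% fell and 6.29% rose, and of all probe sets 4.03% rose and 2.75% fell. At an adjusted p under 0.1, 1 gene rose and 6 fell, 10 probe sets rose, 32 fell and 4 index values passed. Of all gene-level rows 3.73% were then lower and 8.22% higher. Of all probe sets 2.15% were higher and 1.41% lower, and 0.467% of all index values passed. Median centring gave 0 rises and 6 falls of genes, and quantile normalization 0 and 7. With rows below the table median left out, 2 genes rose and 8 fell, and 21 probe sets rose and 73 fell. These were 7.69% and 30.8% of the 26 genes of the set left, against 14.9% and 7.23% of all rows left, and 4.57% and 15.9% of its probe sets, against 6.87% and 4.79%. Among transcript clusters only, 1 gene rose and 6 fell (3.12% and 18.8%, against 7.54% and 4.15% of all). Array weights gave 1 rise and 4 falls of genes, against 4.86% and 2.23% of all gene-level rows. They gave 3 rises and 10 falls of probe sets, against 0.69% and 0.448% of all. The index passed for 2 of 471 probe sets there, against 0.175% of all tested. With the median of all probe sets as the gene level 0 index values passed (59 at an unadjusted p under 0.05), and with no filter 0 (37). With diffSplice 9 of 471 passed, against 1.26% of all probe sets tested. Leaving out 1 array gave 0 rises and 0 to 2 falls of genes, 0 rises and 0 falls of probe sets, and 0 to 1 index values. These fits test fewer arrays, and filters test fewer rows; for the other settings the cause was not tested. No difference of a called gene changed sign under any of the 15 alternatives run for it, but not all of these could change it. The replicate block, trend and robust eBayes, the wider threshold and the row filters leave each difference as it is by construction. Grik2 stayed past the threshold in 10 of 15, Dlg4 in 9, Dlgap1 in 8 and Grin2c in 6. Each count includes the wider threshold of 0.1, which a gene called in the main fit passes by construction. The threshold, scaling and array weights each left the exon-level direction of the set, more falls than rises, as it was. The simulated recovery of exon-level changes of 0.5 was 0 of 100. The simulated arrays gave 57 calls at exon level and the data 2307, so the adjusted threshold was stricter in the simulation. In the data Gria2 probe set 4712583 passed at -0.55. The simulation thus does not give the recovery in these data, where changes of that size could still be missed.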
